A study of Rattus norvegicus with 6 samples.

Results

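Genes of muscle-type stress proteins and of the YAP/TEAD pathway were followed in rat dorsal root ganglia after nerve injury: Ankrd1 and Csrp3, the other cysteine-rich LIM proteins Csrp1 and Csrp2, and Yap1, Tead1, Amotl2 and Lats2. These 8 are drawn from the 14346 genes listed in at least 1 library. Ganglia, which hold the cell bodies of sensory neurons, were taken at day 7 after partial sciatic nerve ligation (pSNL, 3 libraries) or at day 7 after a sham operation (3 libraries). In pSNL part of the sciatic nerve is tied, so that injured and spared axons share 1 nerve. The sources used here do not give strain, age or the number of animals in a library, and the spread between libraries may be partly technical. The 8 genes were chosen by name with the levels in these pSNL and sham libraries, above all those of Ankrd1 and Csrp3, already in view. Their differences between the groups are therefore given as a description, without p-values, and nothing is supported with them.

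YAP is a transcriptional co-activator that is held in the cytoplasm when the Hippo kinases, among them LATS1 and LATS2, phosphorylate it, and that acts in the nucleus through TEAD factors. Amotl2, Lats2 and Ankrd1 are widely used as YAP/TEAD target genes in cultured cells; AMOTL2 and LATS2 also restrain YAP. Ankrd1 encodes an ankyrin repeat protein that binds titin in the sarcomere and is induced by load and injury in muscle. Csrp3 encodes muscle LIM protein, which sits at the Z-disc of striated muscle; its relatives CSRP1 and CSRP2 bind the actin cytoskeleton in many cell types and in smooth muscle.

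Some libraries stood apart from the others. The sums of 28 skeletal muscle fibre genes were 62.4, 62.9 and 1723 CPM (CPM, read counts relative to TMM-scaled library size) in pSNL replicates 1, 2 and 3, against 63.3, 55.8 and 943 CPM in sham replicates 1, 2 and 3, so replicate 3 of both groups carried muscle transcripts. The sum of 10 central glia genes was 32.9 to 66.3 CPM in the pSNL libraries, 36.4 and 35.1 CPM in sham replicates 1 and 2, and 1967 CPM in sham replicate 3. The immediate early gene Fos was at 426 CPM in pSNL replicate 2, against 3.18 and 14.5 CPM in pSNL replicates 1 and 3 and 4.81 to 8.26 CPM in the sham libraries. Markers of sensory neurons, the defining cells of the labelled tissue, were abundant in every library, with 13 genes summing to 36234 to 41464 CPM in pSNL and 40390 to 51183 CPM in sham. Library totals were 4339565 to 4416121 estimated counts in pSNL and 4310643 to 4412391 in sham, so 3 counts make 0.681 to 0.694 CPM.

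Ankrd1 (gene ID 27064) was close to silent in sham ganglia and present in every injured one. It had 20, 60 and 52 counts in pSNL replicates 1, 2 and 3, and 1, 0 and 2 counts in sham replicates 1, 2 and 3. On the CPM scale these were 4.54, 13.9 and 11.9 in pSNL, against 0.23, 0 and 0.46 in sham. The groups did not overlap, and pSNL replicate 1 was the lowest of the injured libraries. Summed over libraries, the 132 pSNL counts against 3 sham counts gave a ratio of 43.9, with an exact 95% interval of 14.7 to 216 that covers counting error only. The 0 counts of sham replicate 2 allow a level of up to 0.689 CPM. Without sham replicate 3 the ratio was 87.9 (15.5 to 3499), and without sham replicate 2, the library with no count, it was 29.3 (9.81 to 144).

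Csrp3 (gene ID 117505) followed the same course at a higher level. It had 72, 132 and 139 counts in pSNL replicates 1, 2 and 3, against 0, 6 and 13 counts in sham replicates 1, 2 and 3. The levels were 16.4, 30.5 and 31.9 CPM in pSNL and 0, 1.38 and 2.99 CPM in sham, with means of 26.2 ± 8.60 CPM in pSNL and 1.45 ± 1.50 CPM in sham (SD, n = 3 each). The lowest injured library was again pSNL replicate 1, and it still exceeded the highest sham library more than 5 times over. The fitted log2 fold change was 4.15 ± 0.66 (SE), a 17.7-fold difference. The 0 counts of sham replicate 1 allow up to 0.688 CPM. The ratio of summed counts was 18.0 (95% counting interval 11.4 to 30.3), and 38.1 (17.3 to 105) without sham replicate 3. Without sham replicate 1, which had no count, it was 12.0 (7.57 to 20.2).

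**Figure D1:**
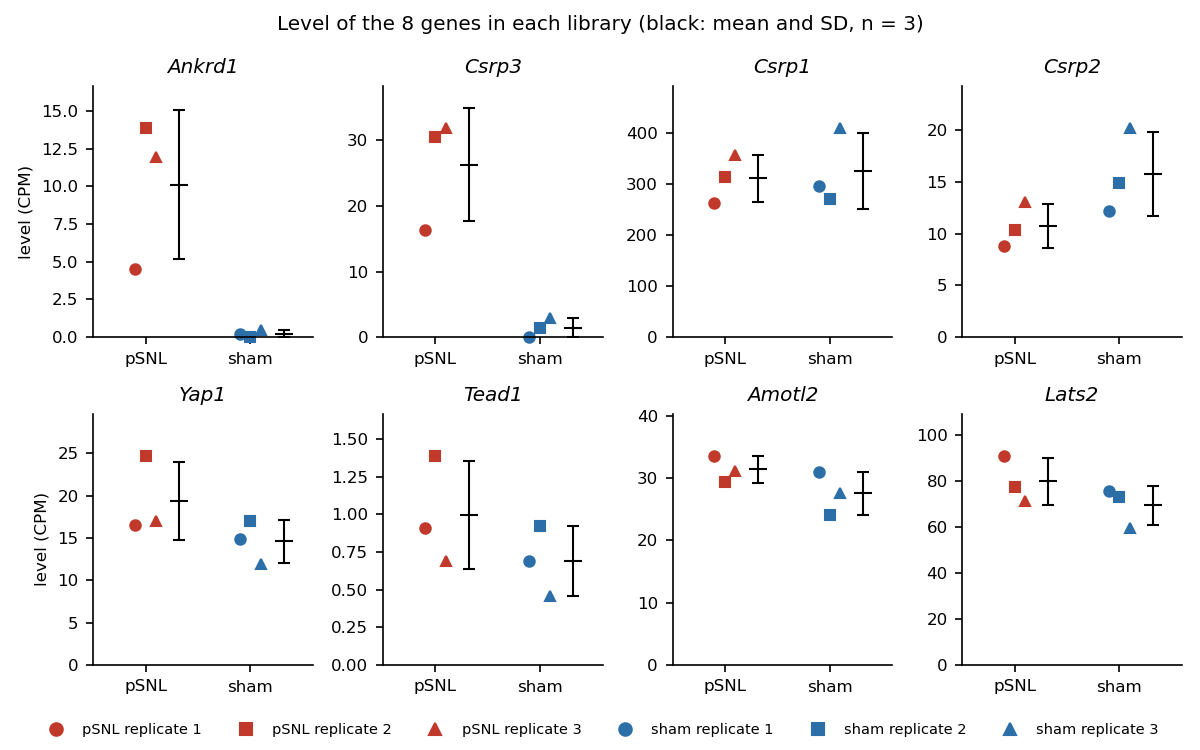
Level in CPM of each of the 8 genes in the 3 pSNL and 3 sham libraries (symbols are replicates; black bars are mean and SD, n = 3). Ankrd1 and Csrp3 sit between 4.54 and 31.9 CPM in pSNL and at or below 2.99 CPM in sham, while the groups of the other 6 genes overlap.

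Of the 8 members, 7 passed the filter on low counts, all but Tead1. The groups of 2 (Ankrd1 and Csrp3) did not overlap, where 21.5% of all 11091 tested genes had groups that do not overlap. The members were chosen with this contrast in view, so their count is not read against this share.

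Since both genes are best known from muscle, their levels were set beside muscle transcripts in each library. The 6 most abundant skeletal muscle genes were Acta1 (skeletal actin), Myh4 (fast myosin heavy chain), Ckm (muscle creatine kinase), Tnnt3 (fast troponin T), and the fast myosin light chains Myl1 and Myl11. Acta1 was at 8.40, 11.1 and 368 CPM in pSNL replicates 1, 2 and 3, against 10.8, 7.80 and 192 CPM in sham replicates 1, 2 and 3. Myh4, Ckm, Tnnt3, Myl1 and Myl11 were at 0 to 2.54 CPM in pSNL replicates 1 and 2 and at 126 to 182 CPM in pSNL replicate 3. In sham they were at 0 to 2.75 CPM in replicates 1 and 2 and at 46.0 to 112 CPM in replicate 3. The fast troponin gene Tnni2 had no count in pSNL replicates 1 and 2.

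Csrp3 was at 30.5 CPM in pSNL replicate 2, where the muscle genes summed to 62.9 CPM, and at 31.9 CPM in pSNL replicate 3, where they summed to 1723 CPM. Sham replicate 3, with 943 CPM of muscle transcripts, held 2.99 CPM of Csrp3. Ankrd1 was higher in pSNL replicate 2 than in pSNL replicate 3 and was at 0.46 CPM in sham replicate 3. With both replicate 3 libraries left out, 204 pSNL counts against 6 sham counts remained for Csrp3, a ratio of 34.0 (95% counting interval 15.3 to 93.6), and 80 against 1 for Ankrd1, a ratio of 79.9 (13.9 to 3195). These ratios rest on few sham counts. Inside each group Csrp3 was highest in replicate 3, and what part of its 13 counts in sham replicate 3 came with the muscle transcripts was not tested.

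**Figure D2:**
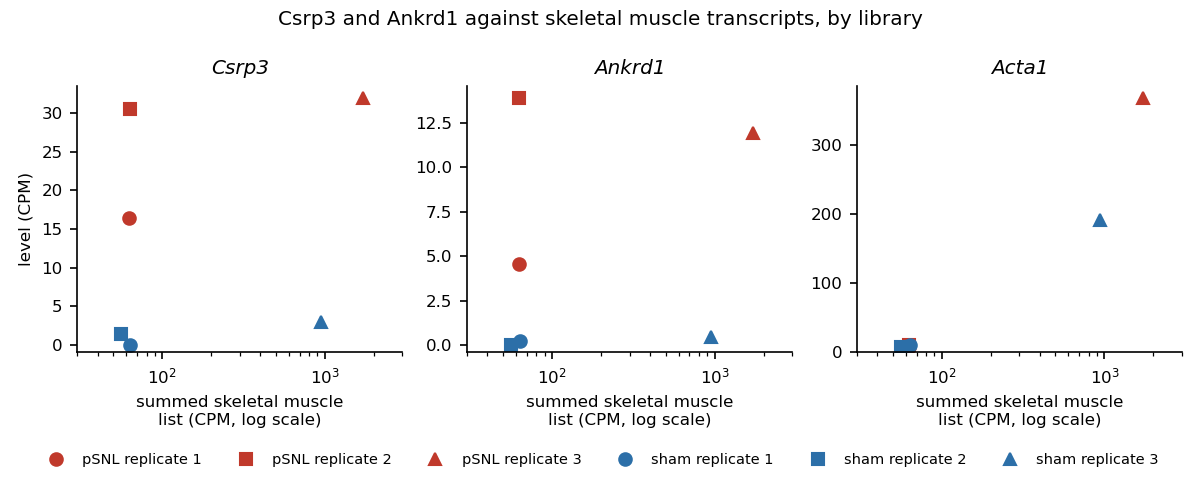
Level of Csrp3, Ankrd1 and, for comparison, skeletal actin (Acta1) in each library in CPM, against the summed CPM of 28 skeletal muscle fibre genes (log axis). Acta1 is at 7.80 to 11.1 CPM in the 4 libraries where the 28 genes sum to 55.8 to 63.3 CPM and at 192 and 368 CPM in both replicate 3 libraries, whereas Csrp3 and Ankrd1 are high in all pSNL libraries and low in all sham libraries.

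The other titin-binding and titin-associated muscle genes listed beside Ankrd1 were at low levels, and some but not all were highest in the replicate 3 libraries. Ankrd23, a titin-binding member of the same ankyrin repeat family, was at 0.23, 0 and 5.05 CPM in pSNL replicates 1, 2 and 3 and at 1.15, 0.69 and 3.22 CPM in sham replicates 1, 2 and 3. Ankrd2, the third member of the family, had 1 count over all 6 libraries, in pSNL replicate 3. Desmin (Des), the muscle intermediate filament, was at 7.26, 7.63 and 22.3 CPM in pSNL against 7.79, 4.82 and 19.3 CPM in sham. Capn3, a muscle calpain, was at 1.82, 2.54 and 2.29 CPM in pSNL and at 1.83, 2.07 and 1.84 CPM in sham. Trim63, a muscle ubiquitin ligase, was at 1.36, 2.77 and 2.06 CPM in pSNL, against 1.83, 0.46 and 2.30 CPM in sham. Mypn (myopalladin, a titin-associated protein) was at 0.45, 0 and 2.98 CPM in pSNL and at 0.46, 0.46 and 1.15 CPM in sham. Ankrd23, Ankrd2, Capn3, Trim63 and Mypn did not pass the filter on low counts, and Des was not past the threshold (edgeR adjusted p = 0.914). Of 10 cardiac muscle genes, 9 were listed; they summed to 107 to 123 CPM in pSNL and 107 to 129 CPM in sham, and edgeR's quasi-likelihood test and DESeq2 called 0 of the 3 tested at an adjusted p of 0.05, with 0 below an unadjusted p of 0.05. Of all 11091 tested genes, edgeR called 0.46%. Among markers of regenerating muscle, Myod1 had 1, 1 and 0 counts and Myog 0, 0 and 1 counts in pSNL, against 0 in sham for Myod1 and 1, 0 and 0 for Myog, and Pax7 and Myf5 were listed in no library. The 7 listed genes of this list of 10 summed to 42, 39.1 and 68.8 CPM in pSNL and 54.8, 28.7 and 30.8 CPM in sham. The 2 tested had log2 fold changes of 0.32 and 0.40, and edgeR and DESeq2 called 0 of them.

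The 2 muscle-type genes were also set beside the injury genes Atf3 and Sprr1a. Atf3, a transcription factor of injured neurons, was at 97.6, 294 and 234 CPM in pSNL replicates 1, 2 and 3 and at 11.5 to 22.8 CPM in sham. Its log2 fold change was 3.64 ± 0.56 (SE). It was not past the threshold in edgeR (adjusted p = 0.0891) and was past it in DESeq2 (adjusted p = 1.01e-08). A gene that edgeR does not call here can therefore still differ widely between the groups. For each 100 CPM of Atf3 there were 4.65, 4.71 and 5.09 CPM of Ankrd1 in the pSNL libraries, against 2.0, 0 and 2.02 CPM in the sham libraries, whose Ankrd1 rests on 0 to 2 counts each. For Csrp3 the same quotient was 16.7, 10.4 and 13.6 CPM in pSNL and 0, 8.70 and 13.1 CPM in sham. Sprr1a, a cornified envelope protein induced by axotomy, was at 6.81, 13.2 and 14.9 CPM in pSNL and at 0, 0 and 0.23 CPM in sham. All 4 genes were thus lowest in replicate 1 among the injured libraries, as were the sums of fibroblast, macrophage and YAP/TEAD target genes. Atf3 and Ankrd1 were highest in pSNL replicate 2, and Csrp3 and Sprr1a in pSNL replicate 3. In bulk tissue fewer cells of a type and less RNA per cell cannot be told apart.

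Across the 6 libraries, the genes whose log2 CPM was most like that of Ankrd1 were the leukocyte integrin subunit Itgal, Sprr1a and the class II invariant chain Cd74 (Pearson r = 0.99 for each, n = 6). Csrp3 had r = 0.92 with Ankrd1 and ranked 229 among the tested genes. The genes nearest to Csrp3 were Limk2 (LIM kinase 2, which phosphorylates cofilin), Hdc (histidine decarboxylase) and Csf2ra (a subunit of the GM-CSF receptor), each with r of 1.00 after rounding. For Amotl2 the nearest were Tacc3, Tfpt and Crlf3 (r = 1.00, 0.98 and 0.97), and Ankrd1 had r = 0.59 with it. The libraries fall into pSNL and sham, and genes with a like difference between the groups have a high r with Ankrd1 or Csrp3, so these values are a description.

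Csrp1 and Csrp2, the relatives of Csrp3, did not share its difference. Csrp1 (gene ID 29276) was at 263, 315 and 356 CPM in pSNL replicates 1, 2 and 3 and at 296, 270 and 410 CPM in sham replicates 1, 2 and 3, with a log2 fold change of -0.06 ± 0.17 (SE). The groups overlapped, the highest library of each was replicate 3, and the sign turned positive without sham replicate 3 (0.13), without pSNL replicate 1 (0.05) and without both replicate 3 libraries (0.028). Csrp2 (gene ID 29317) was at 8.85, 10.4 and 13.1 CPM in pSNL, against 12.2, 14.9 and 20.2 CPM in sham, with a log2 fold change of -0.55 ± 0.24. Its groups overlapped as well, and without sham replicate 3 the log2 fold change was -0.33. The highest sham library in both genes was the one with central glia and muscle transcripts, and the part of these in the result was not tested.

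Per unit of length, Csrp1 made up most of the family in every library. Its share of the summed FPKM of Csrp1, Csrp2 and Csrp3 was 83.4%, 78.8% and 79.3% in pSNL and 92.1%, 88.8% and 89.4% in sham. Csrp3 made up 10.7%, 15.8% and 14.6% in pSNL, against 0%, 0.935% and 1.34% in sham. Csrp2 made up 5.87%, 5.44% and 6.08% in pSNL and 7.90%, 10.2% and 9.21% in sham. Csrp3 was thus the second most abundant of the 3 in each pSNL library and the least abundant in each sham library.

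**Figure D3:**
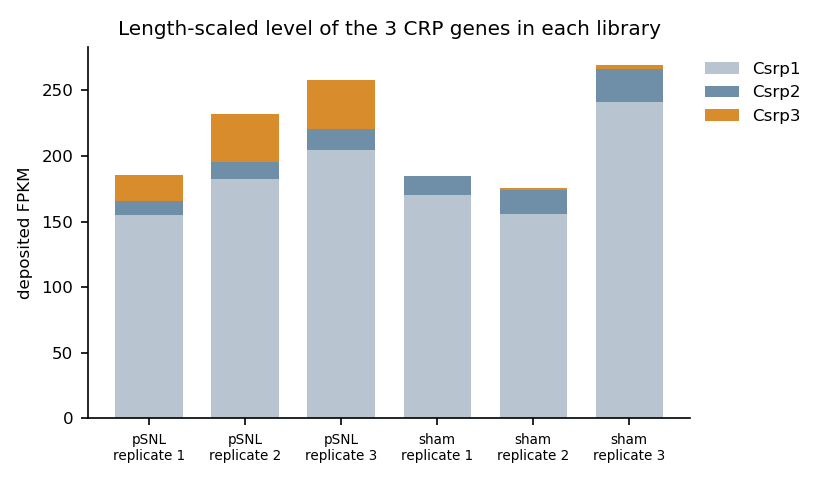
Deposited FPKM of Csrp1, Csrp2 and Csrp3 stacked for each pSNL and sham library. Csrp3 is 10.7% to 15.8% of the stack in pSNL and at most 1.34% in sham, and the total is 186 to 258 FPKM in pSNL and 175 to 270 FPKM in sham.

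On the same length-scaled measure, the order of the 8 genes in pSNL was Csrp1 (181 ± 24.8 FPKM), Csrp3 (31.4 ± 9.99), Lats2 (15.9 ± 2.24), Yap1 (13.3 ± 3.12), Csrp2 (13.1 ± 2.42), Amotl2 (7.49 ± 0.583), Ankrd1 (5.76 ± 2.78) and Tead1 (0.64 ± 0.229 FPKM; SD, n = 3 each). Lats2, Yap1 and Csrp2 overlapped between libraries, as did Amotl2 and Ankrd1. In sham the order was Csrp1 (189 ± 45.7 FPKM), Csrp2 (19.1 ± 5.22), Lats2 (13.8 ± 1.56), Yap1 (9.93 ± 1.62), Amotl2 (6.55 ± 0.815), Csrp3 (1.75 ± 1.81), Tead1 (0.44 ± 0.14) and Ankrd1 (0.133 ± 0.135 FPKM). There Csrp2 overlapped Lats2, and Csrp3 overlapped Tead1 and Ankrd1. Ankrd1 lay above Tead1, a gene of a few counts per library, in every pSNL library. In sham its FPKM lay below that of Tead1, but in sham replicate 3 both genes had 2 counts.

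Among the YAP pathway members, Yap1 (gene ID 363014), the co-activator itself, was at 16.6, 24.7 and 17.0 CPM in pSNL replicates 1, 2 and 3 and at 14.9, 17.0 and 12.0 CPM in sham replicates 1, 2 and 3. The groups overlapped, and the highest value was that of pSNL replicate 2. Its log2 fold change was 0.41 ± 0.21 (SE), and 0.19 without pSNL replicate 2. Tead1 (gene ID 361630), the DNA-binding partner, had 4, 6 and 3 counts in pSNL against 3, 4 and 2 counts in sham and did not pass the filter on low counts. The ratio of its 13 pSNL counts to 9 sham counts was 1.44, with a 95% counting interval of 0.57 to 3.82.

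Amotl2 and Lats2, the YAP/TEAD targets among the members beside Ankrd1, overlapped between the 2 groups. Amotl2 (gene ID 65157), an angiomotin-like scaffold, was at 33.6, 29.4 and 31.2 CPM in pSNL, against 30.95, 24.1 and 27.6 CPM in sham. Lats2 (gene ID 305922), a Hippo kinase, was at 91.0, 77.4 and 71.1 CPM in pSNL and at 75.6, 73.0 and 59.5 CPM in sham. The log2 fold changes were 0.19 ± 0.14 for Amotl2 and 0.20 ± 0.13 for Lats2 (SE), and with 1 library left out they lay between 0.10 and 0.28 for each gene. Against these, the log2 fold changes of Ankrd1 with 1 library left out lay between 4.76 and 6.14.

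Promoter sequence was on hand for 4 members (Csrp1, Csrp2, Yap1 and Amotl2), from RefSeq on the rat build GRCr8. The 250 bases before the start of transcription were searched on both strands for the core TEAD motif GGAATG, for the AP-1 motif TGANTCA and for the CArG box that SRF binds. Yap1 and Amotl2 held 1 TEAD match each, and Csrp1 and Csrp2 held none of the 3 motifs. A TEAD match was present in 11.8% of the 27457 promoters searched, an AP-1 match in 6.36% and a CArG box in 1.50%. The matches are shown because Amotl2 is named as a TEAD target; capitals mark the motif, as GGAATG or, on the other strand, CATTCC, with 12 bases on either side.
Amotl2: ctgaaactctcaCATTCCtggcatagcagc
Yap1: agggagtctgcaGGAATGtaacgacgcgca
The Amotl2 stretch is chr8:112182538-112182567 on the plus strand and begins its motif 76 bases before the start. The Yap1 stretch is chr8:13451536-13451565 on the minus strand, with the motif 116 bases before the start. Both lie inside the extent of their gene in the RefSeq table, since another transcript starts farther upstream. A match of this kind is a description of the letters and not a binding site.

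The wider YAP/TEAD target list held no gene past the threshold in the main edgeR fit. Of its 19 genes other than members 15 were listed and 14 tested; edgeR's quasi-likelihood test called 0 of them at an adjusted p of 0.05, against 0.46% of all tested genes, 4 were below an unadjusted p of 0.05, and 1 was called by DESeq2 (Gadd45a). Over all tested genes 15.5% had an unadjusted p under 0.05. The median log2 fold change of the 14 was 0.34, and 0.16 without pSNL replicate 2, against 0.00 over all tested genes. Of the 14, 10 were positive and 4 negative, against 49.4% positive among all tested genes. Without overlap, 2 were higher in pSNL (Gadd45a and Nuak2) and 1 was lower, where 21.5% of all tested genes did not overlap in either direction. Nuak2 had 24 counts in both pSNL replicate 2 and sham replicate 3, so its groups were parted by library scaling alone (5.55 and 5.52 CPM). The lower gene was Fjx1, at 8.63, 9.71 and 9.63 CPM in pSNL and 10.1, 10.6 and 24.1 CPM in sham (log2 fold change -0.68 ± 0.34 SE, edgeR adjusted p = 0.381). Its highest pSNL count was 42 and its lowest sham count 44, and its highest library was sham replicate 3, the library with central glia transcripts. Gadd45a, a stress gene that responds to DNA damage, was at 72.9, 150 and 124 CPM in pSNL and at 29.8, 38.1 and 31.5 CPM in sham (log2 fold change 1.80 ± 0.27, edgeR adjusted p = 0.0576). Its groups did not overlap. Gadd45a was past the threshold in 5 of its 14 alternatives, 1 of them DESeq2. The other 4 were edgeR fits without pSNL replicate 1 (adjusted p = 0.00024), with the replicate block (0.00291), without robust estimation (0.0233) and without a scaling factor (0.0469). Over all alternatives the adjusted p of edgeR or DESeq2 lay between 1.94e-11 and 0.211.

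Ccn2 and Ccn1, secreted matricellular proteins and widely used as YAP targets, varied widely among the pSNL libraries. Ccn2 was at 10.4, 28.4 and 15.4 CPM in pSNL and at 10.5, 7.80 and 9.19 CPM in sham (edgeR adjusted p = 0.243). Ccn1 was at 6.13, 63.3 and 34.9 CPM in pSNL, against 16.7, 9.64 and 4.60 CPM in sham (edgeR adjusted p = 0.483). In both, pSNL replicates 2 and 3 lay above every sham library and pSNL replicate 1 lay within the sham range. The highest was pSNL replicate 2, the library with high Fos, and without it the log2 fold change of Ccn2 was 0.49, against 0.97 with all libraries. The receptor tyrosine kinase Axl was at 58.1 ± 13.3 CPM in pSNL and 44.8 ± 3.05 CPM in sham, and the kinase Nuak2 at 6.11 ± 0.69 and 3.14 ± 2.09 CPM in pSNL and sham (SD, n = 3 each; edgeR adjusted p = 0.287 and 0.316).

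Among Hippo core genes and regulators, 26 genes other than members were on the list and 20 were tested. Of these, edgeR called 0, against 0.46% of all tested genes, and DESeq2 called 1 (Map4k4). Below an unadjusted p of 0.05 were 5, against 15.5% of all tested genes. The median log2 fold change was 0.18, and 16 of 20 were positive, against 49.4% of all tested genes. The groups of 7 did not overlap, all higher in pSNL, where 11.1% of all tested genes were higher without overlap. Map4k4, a kinase upstream of LATS, was at 199, 223 and 195 CPM in pSNL and at 163, 146 and 155 CPM in sham (log2 fold change 0.41 ± 0.09, edgeR adjusted p = 0.0792). Frmd6, a FERM-domain protein, was at 50.9 ± 9.56 CPM in pSNL and 34.8 ± 5.37 CPM in sham, and the LIM protein Ajuba, which inhibits LATS kinases, at 29.0 ± 5.15 CPM in pSNL and 20.5 ± 2.83 CPM in sham (edgeR adjusted p = 0.151 and 0.207). Mob1a, a co-activator of LATS, was at 53.1 ± 7.84 CPM in pSNL and 41.6 ± 6.90 CPM in sham (edgeR adjusted p = 0.297). Wwtr1, which encodes TAZ, the paralog of YAP, was at 16.4, 12.7 and 8.49 CPM in pSNL and at 10.5, 11.0 and 6.66 CPM in sham. The other TEAD genes tested, Tead2 and Tead3, had log2 fold changes of -0.05 ± 0.37 and -0.11 ± 0.23 (SE).

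**Figure D4:**
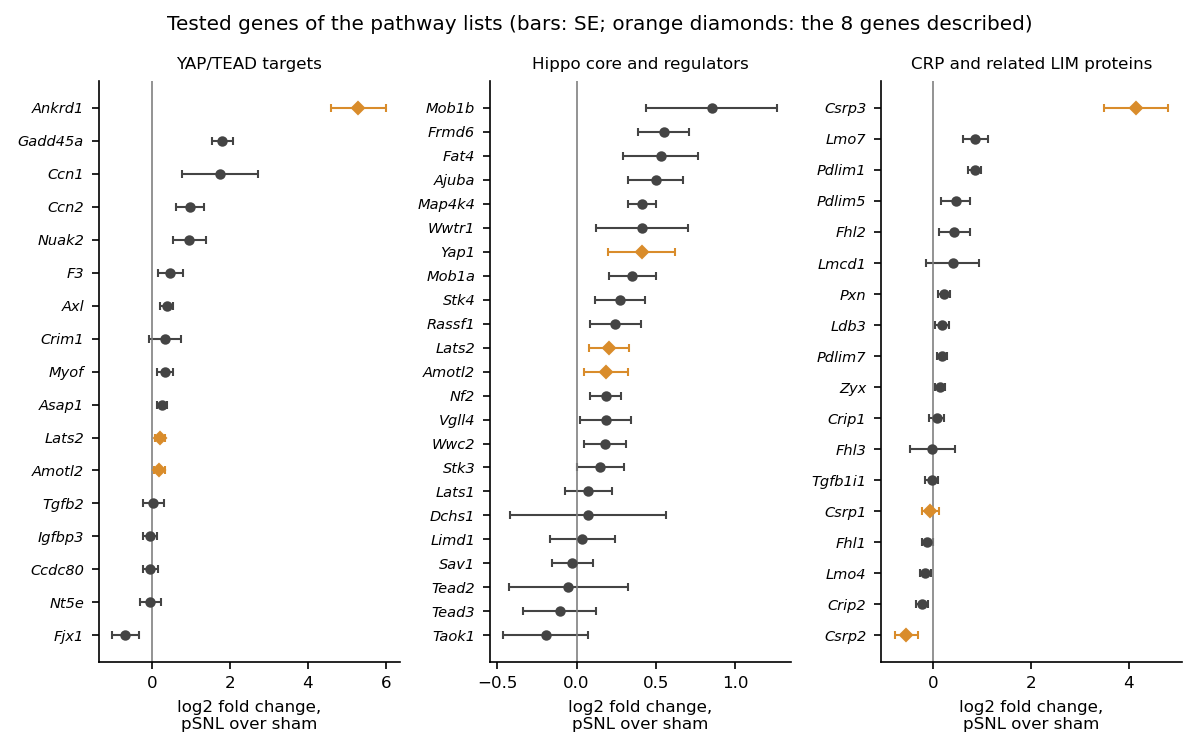
Fitted log2 fold change, pSNL over sham, with SE for every tested gene of the YAP/TEAD target, Hippo and LIM protein lists; orange diamonds are members and the 3 axes differ in range. Ankrd1 (5.29) and Csrp3 (4.15) lie far to the right of the other genes of their lists, while Yap1, Amotl2, Lats2, Csrp1 and Csrp2 lie between -0.55 and 0.41.

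Of 17 LIM proteins other than the CRP genes 15 were tested and 1 was past the threshold. Pdlim1 (gene ID 54133), an actin-associated PDZ and LIM protein, rose to 89.2, 111 and 112 CPM in pSNL replicates 1, 2 and 3, against 63.5, 61.3 and 48.5 CPM in sham replicates 1, 2 and 3 (log2 fold change 0.85 ± 0.13 SE, edgeR adjusted p = 0.0264, 5.71e-05 to 0.155 over its alternatives). Its groups did not overlap, but of the fits with 1 library left out only that without pSNL replicate 1 kept the call. Lmo7 was at 12.7 ± 2.64 CPM in pSNL and 6.96 ± 1.56 CPM in sham (edgeR adjusted p = 0.153). Crip2, Pdlim7 and Pxn, the next by p-value, had log2 fold changes of -0.23, 0.18 and 0.22 (edgeR adjusted p = 0.400, 0.426 and 0.432). The list had a median of 0.18, with 10 of 15 positive, against 49.4% of all tested genes. Its median was 0.087 without pSNL replicate 3, 0.11 without sham replicate 3 and 0.060 without both of these libraries.

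SRF/MRTF target genes, which respond to actin dynamics and include smooth muscle genes, had 14 tested genes. Of these, edgeR and DESeq2 called 0, and 3 were below an unadjusted p of 0.05. Over all tested genes edgeR called 0.46%, and 15.5% were below that p. The median log2 fold change was 0.14, with 11 positive and 3 negative, against 49.4% positive among all tested genes. The groups of 4 did not overlap, all higher in pSNL, where 11.1% of all tested genes were higher without overlap. The focal adhesion protein vinculin (Vcl) was at 168 ± 16.3 CPM in pSNL and 127 ± 10.4 CPM in sham, filamin A (Flna) at 173 ± 17.0 and 135 ± 13.5 CPM in pSNL and sham, and Tagln2 at 447 ± 15.5 and 385 ± 30.8 CPM in pSNL and sham (edgeR adjusted p = 0.102, 0.142 and 0.273). The smooth muscle and pericyte list had 12 tested genes, 0 called by edgeR or DESeq2, 2 below an unadjusted p of 0.05 and a median of 0.15.

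Marker sums of other cell types of the ganglion, in which YAP target genes can also be expressed, differed between the groups to different degrees. Over all tested genes edgeR called 0.46%, 15.5% had an unadjusted p under 0.05 and 11.1% were higher in pSNL without overlap. DESeq2 called 332 genes in all, where edgeR called 51, so its counts are not to be read against the edgeR share. Fibroblast genes summed to 4323, 7140 and 5016 CPM in pSNL and to 3866, 2676 and 1786 CPM in sham. Of 9 tested, edgeR called 1 (Mgp), DESeq2 called 4 and 8 were below an unadjusted p of 0.05. All 9 were higher without overlap, and the median log2 fold change was 0.97. Macrophage genes summed to 311, 517 and 526 CPM in pSNL, against 194, 175 and 234 CPM in sham, with 0 of 10 called by edgeR, 7 below an unadjusted p of 0.05 and 5 called by DESeq2. Schwann cell genes summed to 20292, 24326 and 31590 CPM in pSNL and to 20698, 17996 and 21609 CPM in sham, with 0 of 10 called by edgeR, 5 below an unadjusted p of 0.05 and 2 called by DESeq2. Endothelial genes summed to 225 to 261 CPM in pSNL and 237 to 309 CPM in sham, with 0 of 10 called by edgeR or DESeq2 and 0 below an unadjusted p of 0.05. Satellite glia genes summed to 6072, 5892 and 7131 CPM in pSNL and to 7193, 7666 and 12073 CPM in sham, the highest being sham replicate 3, the library with central glia transcripts. Of 9 tested, 0 were called by edgeR, 3 were below an unadjusted p of 0.05 and 2 were called by DESeq2. Of 13 sensory neuron genes tested, 0 were called by edgeR, 5 were below an unadjusted p of 0.05 and 2 were called by DESeq2. Their median log2 fold change was -0.26, with 2 positive and 11 negative, against 49.4% positive among all tested genes. The groups of 3 did not overlap, all lower in pSNL, where 21.5% of all tested genes did not overlap in either direction. The part of these cell types in the values of Ankrd1, Csrp3 or the YAP pathway genes was not tested.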

How the data were processed

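Groups and replicate numbers of the 6 libraries came from the sample titles. Per the file headers, each gene has an expected count, a length and an FPKM value that the authors deposited, 1 file per library. CASAVA 1.4 and Bowtie2 appear in the submitters' processing notes; the sources used here give neither quantifier nor genome build. Genes not listed for a library were set to 0. Gene IDs were matched to symbols in a RefSeq table of GRCr8 (14227 by gene ID, 11 by transcript, 108 kept by ID). Strand use in counting is not stated, so overlapping genes may share reads.

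Expected counts were rounded and tested with edgeR 4.0.16 in R 4.3.3 (TMM, default filter on low counts, robust quasi-likelihood F test, Benjamini-Hochberg over 11091 genes, threshold 0.05). Standard errors derive from the test statistic. Counting intervals are exact at 95% and cover counting error only, since reads carry no molecular identifiers.

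The 8 members and 17 gene lists were chosen with earlier results of these data known. Named are the members, every gene of a pathway list past the threshold, 4 further genes of each with the smallest p, the 6 most abundant muscle genes, the 3 genes with the highest r to Ankrd1, Csrp3 or Amotl2, and Atf3 and Sprr1a. Ccn1, Fjx1, Wwtr1, Tead2, Tead3, Ankrd2, Ankrd23, Mypn, Capn3, Trim63, Des, Tnni2, Myod1, Myog and Mgp were named after their values were seen. List counts leave the 8 members out. Alternatives were 14 other fits.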

Additional observations from a re-analysis of the deposited data

How the results depend on the processing

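The directions of the log2 fold changes of Ankrd1, Csrp3, Csrp2, Yap1, Amotl2 and Lats2 were the same in every alternative that gave a value. The stricter filter, at least 5 CPM in 3 libraries, removed Ankrd1 and gave no value. Csrp1 turned positive without pSNL replicate 1 (0.05), without sham replicate 3 (0.13) and without both replicate 3 libraries (0.028), and with 1 library left out it lay between -0.18 and 0.13; the cause was not tested. Without both replicate 3 libraries, the log2 fold change was 6.01 for Ankrd1 and 5.03 for Csrp3. That of Csrp3 was 4.17 in DESeq2, 4.15 without robust estimation and 4.23 with the replicate block. With 1 library left out, the log2 fold changes lay between 4.76 and 6.14 for Ankrd1 and between 3.57 and 5.19 for Csrp3. The count of genes past the threshold was 51 of 11091, and 332 in DESeq2, 89 without a filter on low counts, 111 with the replicate block, 102 without both replicate 3 libraries, and 5 to 217 with 1 library left out (33 without sham replicate 3). Medians of the YAP/TEAD target, Hippo, LIM protein and SRF/MRTF lists moved by less than the spread between replicates (0.233, 0.108, 0.227 and 0.555) in all 14 alternatives. For the LIM protein and SRF/MRTF lists this says little, since the spread exceeded the medians of 0.18 and 0.14. With 1 library left out the medians lay between 0.16 and 0.41, 0.17 and 0.22, 0.087 and 0.25, and 0.11 and 0.21 for the 4 lists. Same-numbered libraries deviated from their group means with correlations of 0.03, 0.01 and 0.12 for replicates 1, 2 and 3. The highest value for differently numbered libraries was 0.10 (pSNL replicate 1 with sham replicate 2). So few libraries cannot show whether the numbers pair the samples, and replicate 3 of both groups carried muscle transcripts. The depth of 4310643 to 4416121 counts leaves Tead1 and the sham levels of Ankrd1 and Csrp3 at a few counts per library.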
